A study of Mus musculus with 16 samples.

Results

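The genes described here are 10 antioxidant genes around the transcription factor NRF2 and the thioredoxin system, taken by name from the 55536 genes of the count table, with glutathione enzymes left out. They are the NRF2 gene Nfe2l2 and its inhibitor Keap1, the NRF2 targets Nqo1 and Hmox1, the thioredoxin cycle genes Txnrd1, Txn1, Srxn1 and Prdx1, and the NADPH-producing enzyme genes Me1 and G6pdx. All 10 passed the filter on low counts. RNA was measured in a mouse inner medullary collecting duct cell line derived from an inducible knockout mouse, in which doxycycline (DOX) removes Pkd2. This is the gene of the cation channel polycystin-2 that is mutated in polycystic kidney disease. All cells were grown on permeable filters for 10 days in a renal epithelial medium with serum. The 4 groups of 4 libraries were passage 4 without DOX, passage 4 with DOX, passage 7 without DOX and passage 7 with DOX, where DOX was given at 2 ug/mL for 6 days. By their titles all groups are Pkd2 knockout cells, and by their genotype labels those without DOX are wild type and those with it have the knockout induced. No group analysed here has DOX and intact Pkd2, so an effect of DOX itself and an effect of losing Pkd2 cannot be told apart. Nothing in the labels makes the replicates separate cultures, and the p-values then measure the spread between these libraries alone, which may be technical.

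In resting cells KEAP1, an adaptor of a ubiquitin ligase, holds NRF2 in the cytoplasm and marks it for degradation. Oxidants and electrophiles modify cysteines of KEAP1, and NRF2 then accumulates, enters the nucleus with a small MAF partner and binds antioxidant response elements of its target genes. NRF2 is therefore controlled largely at the protein level, which transcript counts do not measure. In the thioredoxin system, thioredoxin reductase (TXNRD1) uses NADPH to reduce thioredoxin (TXN1), which in turn reduces peroxiredoxins such as PRDX1 after they have removed peroxide, and sulfiredoxin (SRXN1) rescues peroxiredoxin that has been over-oxidised. Malic enzyme (ME1) and glucose-6-phosphate dehydrogenase (G6PDX) supply the NADPH. The epithelium of the inner medulla lives in a salty, poorly oxygenated tissue.

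The core of the antioxidant response element, TGACNNNGC, was looked for on both strands of the RefSeq promoter windows of GRCm38.p6. Each window runs from 250 bases before to 50 bases after its own annotated start. The first letters of the core are shared with the binding site of AP-1 factors. Of the 10 genes, 9 were in the table, and 6 of these (66.7%) held the core, against 3781 of 27025 genes (13.99%) in the whole table. Counted by window, since some genes have several, it was 6 of the members' 12 (50%) against 4071 of 32851 (12.4%). Nfe2l2, Txnrd1, Srxn1, Prdx1, Me1 and G6pdx held it. Keap1, Nqo1 and Txn1 did not have these letters in this window, which says nothing of other parts of these genes. The genes were chosen by name for their place around NRF2, whose element this is, so the shares are no test of the list. A match is a run of letters and no measurement of binding. The matching stretches are shown because they are what members of different roles have in common, with the core in capitals and 10 bases on each side, read 5′ to 3′ on the strand of the match. They lie at chr4:116685456-116685484 (minus strand) for Prdx1, chr9:86695902-86695930 (minus) for Me1, chrX:74428919-74428947 (plus) for G6pdx, chr2:75704885-75704913 (minus) for Nfe2l2, chr10:82859104-82859132 (minus) for Txnrd1 and chr2:152105542-152105570 (minus) for Srxn1. The stretches of Me1, G6pdx and Srxn1 touch an annotated exon of their gene.
Prdx1: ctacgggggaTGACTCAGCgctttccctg
Me1: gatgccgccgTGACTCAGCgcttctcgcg
G6pdx: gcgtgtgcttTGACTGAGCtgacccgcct
Nfe2l2: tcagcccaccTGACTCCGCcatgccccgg
Txnrd1: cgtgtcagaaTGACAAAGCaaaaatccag
Srxn1: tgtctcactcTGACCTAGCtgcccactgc
Counted from the start of its own window, the core began 240 bases before it in Nfe2l2, 133 in Prdx1 and 92 in Txnrd1. It began 57 bases before in G6pdx, 6 before in Me1 and 28 after in Srxn1. For Txnrd1 this was window 2 of 3. The matches of Txnrd1, G6pdx, Me1 and Srxn1 lie within the gene coordinates given below.

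Pkd2 itself had log2 fold changes with DOX of -1.41 at passage 4 and -1.71 at passage 7, and every library without DOX exceeded every library with it. The libraries held 9937504 to 17188295 counts. The headers of the deposited TPM table disagree with those of the counts: 4 of 16 TPM columns were closest to the count column with their own header and 12 to a column of another group. Pkd2 follows the DOX labels of the count headers, so all values below come from the counts as headed, and Pkd2 is then no separate check of those labels. TPM columns headed passage 4 were closest to count columns without DOX, and those headed passage 7 to count columns with DOX. TPM columns headed without DOX were closest to count replicates 1 and 2, and those headed with DOX to 3 and 4. Pkd2 bears on the DOX labels only, so the passage labels and replicate numbers of the counts were not checked. All results by passage or replicate pair rest on them. The epithelial genes Cdh1 and Krt8 were high (514 to 743 and 1145 to 2445 CPM, counts scaled to library size). Krt8 and Krt18 fell with DOX at passage 4 (-0.66 and -0.44) and at passage 7 (-0.35 and -0.26), while Cdh1, Epcam and Krt19 did not pass the test. The summed level of these 5 epithelial genes was 5116 to 5276 CPM without and 3903 to 4158 with DOX at passage 4, and 5858 to 6421 and 5038 to 5555 at passage 7, and its part in the falls described below was not tested. Of 12 collecting duct genes, 8 passed the filter, led by the sodium channel gene Scnn1a (88.0 to 226 CPM) and the transcription factor gene Hoxb7 (38.2 to 91.7 CPM), whereas Scnn1b, Scnn1g and the vasopressin receptor gene Avpr2 were at most at 3.81 CPM. The water channel gene Aqp2, which defines principal cells, had 0 counts in every library, and Aqp3, Elf5 and Fxyd4 had 21, 3 and 16 counts in all 16 together. Libraries also fell into pairs in every group, replicates 1 and 2 against replicates 3 and 4, which no sample label explains. The DOX mark of the TPM headers follows this same split.

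Expressed per length of merged exons, Prdx1 and Txn1 had the 2 highest means and Nqo1 the lowest in each of the 4 groups. At passage 4 without DOX, Txn1 had a mean of 186 ± 2.60 CPM per kilobase (SD, n = 4) and Prdx1 of 178 ± 6.96, and their libraries overlapped. Nfe2l2 followed at 129 ± 5.12 and Txnrd1 at 66.5 ± 4.74, each apart from its neighbours. Below them came G6pdx at 49.4 ± 4.46, Hmox1 at 41.7 ± 1.81, Me1 at 36.0 ± 0.75, Srxn1 at 28.6 ± 4.53, Keap1 at 19.9 ± 0.85 and Nqo1 at 5.01 ± 1.44. In this group no neighbours in the order overlapped except Txn1 and Prdx1. With DOX at passage 4, Txn1 overlapped Nfe2l2, and Me1, Hmox1, Srxn1 and Keap1 formed a run in which each overlapped the next. At passage 7, Prdx1, Txn1, Nfe2l2 and Txnrd1 held the first 4 places in that order in both groups, and Txn1 and Nfe2l2 overlapped with DOX. Further down at passage 7, Hmox1, Srxn1 and Me1 formed a run of overlapping neighbours without DOX, and Hmox1, G6pdx, Srxn1 and Me1 did so with DOX. Keap1 stood next to last in all groups. All these places rest on the merged exon lengths. Without division by length, the means at passage 4 without DOX were 543 CPM for Prdx1, 489 for Nfe2l2, 471 for Txnrd1 and 196 for Txn1. Nqo1 rested on 62 to 160 counts per library, the fewest of the members, and Nfe2l2 on up to 10302.

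**Figure D1:**
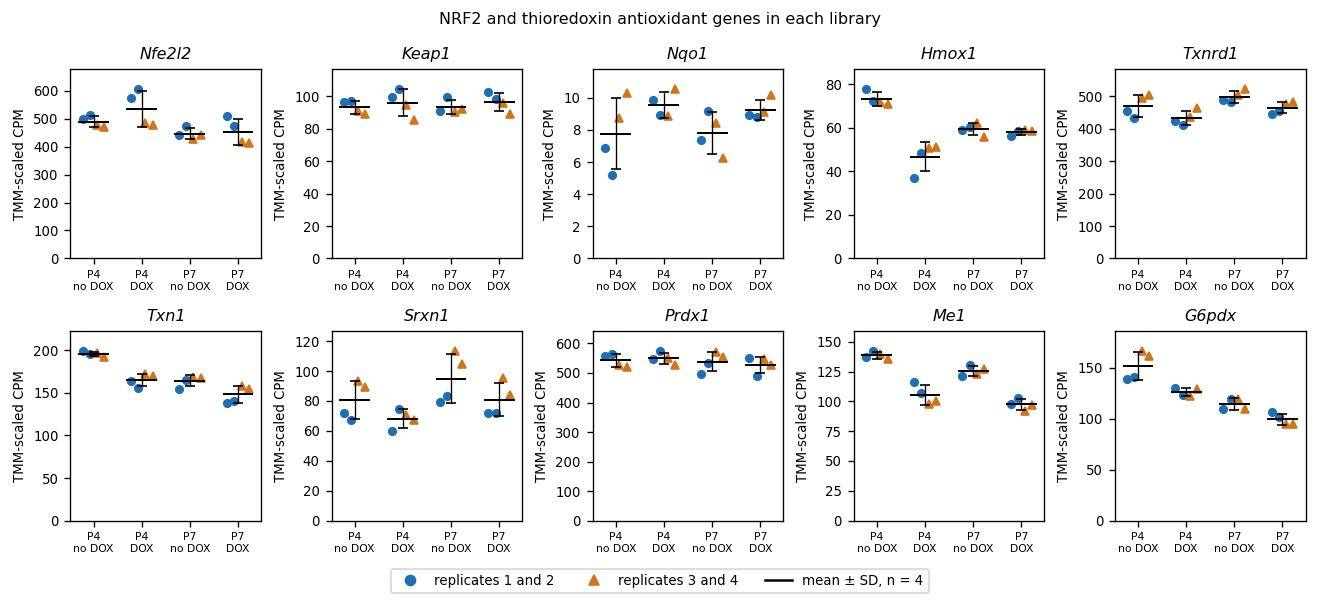
Counts scaled to library size (CPM, linear axis from 0) of the 10 genes in each of the 16 libraries, with circles for replicates 1 and 2, triangles for replicates 3 and 4, and bars for the mean ± SD of 4. Hmox1 was between 36.8 and 51.3 CPM in passage 4 with DOX and at least 55.8 CPM in every other group, and Me1 was lower with DOX at both passages.

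DOX lowered 4 of the 10 genes at passage 4 and 2 at passage 7, and raised none at either. At passage 4 the heme oxygenase gene Hmox1, the malic enzyme gene Me1, the thioredoxin gene Txn1 and the glucose-6-phosphate dehydrogenase gene G6pdx fell (edgeR's quasi-likelihood test, with p-values adjusted by Benjamini-Hochberg over 15316 genes and a threshold of 0.05). Me1 and G6pdx fell at passage 7 too. Of all genes tested at passage 4, 8.45% were called higher and 9.1% lower, and at passage 7, 11.1% and 11.6%. No member was higher at an unadjusted p under 0.05 or by DESeq2 at either passage. The median log2 fold change of the 10 genes was -0.18 at passage 4 and -0.06 at passage 7, against 0.00 and -0.01 over all genes tested. The 2 DOX comparisons have no library in common. With the replicate number as a block in the fit, 6 genes were lower at passage 4 and 4 at passage 7, with the additions named below. Over all 15316 genes the block called 2145 lower at passage 4 and 2522 at passage 7, against 1393 and 1769 without it.

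**Figure D2:**
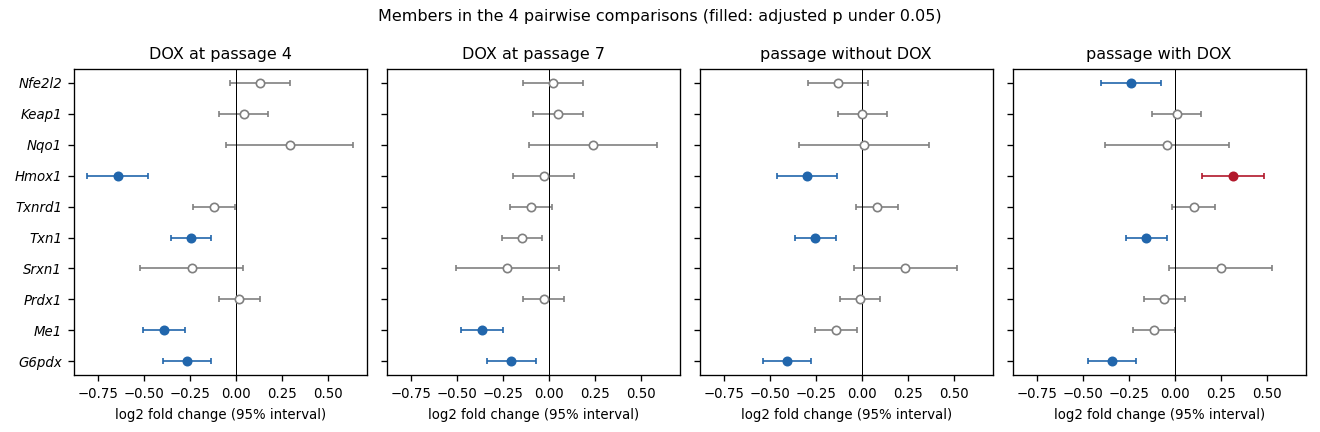
Log2 fold change with its 95% interval for the 10 genes in the 4 pairwise comparisons, where filled points passed an adjusted p of 0.05 in edgeR's test and open points did not. Me1 and G6pdx lie left of 0 with filled points for DOX at both passages, and Hmox1 is filled on the left for DOX at passage 4 and on the right for passage with DOX.

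The transcription factor gene Nfe2l2 (chromosome 2, 75675513 to 75704641, GRCm38, minus strand) and the inhibitor gene Keap1 (chromosome 9, 21229730 to 21239361, minus strand) did not pass the test for DOX. Nfe2l2 had 497, 512, 477 and 469 CPM in replicates 1 to 4 of passage 4 without DOX and 574, 606, 485 and 476 with DOX. Passage 7 values were 443, 473, 428 and 441 CPM without DOX and 508, 472, 417 and 414 with it. The groups overlapped at both passages, and replicates 1 and 2 with DOX at passage 4 stood above the rest. DOX gave a log2 fold change of 0.13 (SE 0.08, adjusted p = 0.283) at passage 4 and 0.02 (SE 0.08, adjusted p = 0.886) at passage 7. Within replicates 1 and 2 alone the passage 4 value was 0.23 (adjusted p = 0.00795), and within replicates 3 and 4 alone 0.02 (adjusted p = 0.808). Keap1 ranged from 85.1 to 104 CPM over all 16 libraries, and its log2 fold change was 0.04 at passage 4 (95% interval -0.09 to 0.18) and 0.05 at passage 7 (-0.09 to 0.18). Keap1 shares exon sequence with Gm16754, an antisense gene of 254 to 503 counts, and the strand setting of the counting is unknown here.

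Hmox1 (chromosome 8, 75093621 to 75100589, plus strand), which encodes the inducible enzyme that opens the heme ring, had the largest DOX response of the 10 genes at passage 4 and a response near 0 at passage 7. At passage 4 it had 77.7, 72.1, 71.6 and 70.7 CPM without DOX and 36.8, 48.2, 50.5 and 51.3 with DOX, and the groups lay far apart. At passage 7 it had 58.8, 60.5, 62.1 and 55.8 CPM without DOX and 56.1, 58.4, 59.0 and 58.7 with it, and these groups overlapped. The log2 fold change was -0.64 at passage 4 (SE 0.08, adjusted p = 1.27e-05), which left 64.0% of the level without DOX, and -0.03 at passage 7 (SE 0.08, 95% interval -0.20 to 0.14, adjusted p = 0.838). The difference between the responses, passage 7 minus passage 4, was itself tested and was 0.61 (SE 0.11, 95% interval 0.38 to 0.85, adjusted p = 0.00838). It was called within replicates 1 and 2 alone (0.75, adjusted p = 0.00239), within replicates 3 and 4 alone (0.48, adjusted p = 0.00232) and without each single library (adjusted p 0.0046 to 0.0241). Of all genes tested, 0.516% had a higher and 0.679% a lower response at passage 7. For the other 9 genes the difference had an unadjusted p above 0.05, with values from -0.11 for Nfe2l2 to 0.10 for Txn1, and this does not show that their responses were alike.

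The summed level of 7 leukocyte and macrophage genes was lower with DOX at both passages, and Hmox1 fell at passage 4. That sum was 39.0 to 46.9 CPM without and 20.1 to 35.6 with DOX at passage 4, and 67.1 to 75.2 and 36.1 to 43.7 at passage 7. Of the 7 genes 3 were tested, and Ptprc (-1.71 and -3.69), Cd68 (-0.74 and -0.95) and Csf1r (-0.63 and -0.72) fell at both passages, while Hmox1 was at -0.03 at passage 7. From passage 4 to passage 7 without DOX, Cd68 (1.03) and Csf1r (0.67) rose and Ptprc fell (-1.68), while Hmox1 fell (-0.30). Adgre1 and C1qa had 0 counts in every library and Lyz2 had 1 count in all 16 together. The part of such cells, or of RNA lost per cell, in the Hmox1 values was not tested, and in RNA from whole cultures fewer cells of a type and less RNA per cell cannot be told apart.

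The quinone reductase gene Nqo1 (chromosome 8, 107388225 to 107403206, minus strand), a standard readout of NRF2, was low in this line and did not pass the test. It had 6.88, 5.17, 8.72 and 10.3 CPM without DOX at passage 4 and 9.85, 8.94, 8.85 and 10.5 with DOX. Passage 7 gave 7.39, 9.17, 8.43 and 6.22 CPM without DOX and 8.90, 8.81, 9.11 and 10.2 with it. The groups overlapped at both passages. The log2 fold changes were 0.29 (SE 0.16, adjusted p = 0.254) and 0.24 (SE 0.17, adjusted p = 0.342), on the side opposite to that of Hmox1. Within replicates 1 and 2 of passage 4 the value was 0.64 (adjusted p = 0.014), and within replicates 3 and 4 it was 0.03 (adjusted p = 0.917).

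In the thioredoxin cycle, Txn1 fell at passage 4, and Txnrd1, Srxn1 and Prdx1 did not pass the test at either passage. Txn1 (chromosome 4, 57943373 to 57956411, minus strand) had 199, 195, 197 and 192 CPM without DOX at passage 4 and 164, 156, 172 and 169.9 with DOX, with no overlap. The passage 7 libraries had 155, 165, 169 and 168 CPM without DOX and 138, 141, 159 and 155 with it, and replicate 1 without DOX lay among the libraries with DOX. The log2 fold change was -0.24 (SE 0.05, adjusted p = 0.00266) at passage 4, which left 84.4%, and -0.15 (SE 0.05, adjusted p = 0.0515) at passage 7. The replicate block brought the passage 7 value past the threshold as well (-0.15, adjusted p = 0.0147). The copy Txn-ps1 had 0 to 4 counts per library.

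The thioredoxin reductase gene Txnrd1 (chromosome 10, 82833951 to 82897712, plus strand) had 453, 433, 495 and 503 CPM without DOX at passage 4 and 424, 412, 436 and 463 with it. At passage 7 it had 487, 482, 503 and 522 CPM without and 447, 456, 476 and 481 with DOX, and there the groups did not overlap, though narrowly. In each replicate number at each passage the library with DOX was below the one without, but a pairing by number is not shown. The log2 fold changes of -0.12 (SE 0.05, adjusted p = 0.155) and -0.10 (SE 0.05, adjusted p = 0.218) did not pass the test. The passage 4 value did with the replicate block (-0.12, adjusted p = 0.0328).

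The sulfiredoxin gene Srxn1 (chromosome 2, 152105516 to 152111376, plus strand) differed between replicate pairs and did not pass the test for DOX at either passage. It had 72.2, 67.2, 93.5 and 89.2 CPM without DOX at passage 4 and 59.6, 74.7, 70.9 and 67.3 with DOX. Its passage 7 libraries had 79.2, 83.1, 113 and 104 CPM without DOX and 72.2, 71.9, 95.3 and 84.3 with it. The groups overlapped at both passages, and in all groups but passage 4 with DOX replicates 3 and 4 were above replicates 1 and 2. The log2 fold changes were -0.24 (SE 0.13, adjusted p = 0.248) and -0.23 (SE 0.13, adjusted p = 0.25). Both were called with the replicate block (-0.22, adjusted p = 0.0264, and -0.23, adjusted p = 0.02). The response at passage 4 was -0.04 within replicates 1 and 2 (adjusted p = 0.777) and -0.40 within replicates 3 and 4 (adjusted p = 1.63e-05), and at passage 7 -0.17 (adjusted p = 0.185) and -0.28 (adjusted p = 0.000903).

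The peroxiredoxin gene Prdx1 (chromosome 4, 116685544 to 116700822, plus strand) lay between 490.5 and 573 CPM in all 16 libraries. Its log2 fold change was 0.02 at passage 4 (95% interval -0.09 to 0.13) and -0.03 at passage 7 (-0.14 to 0.08), and the groups overlapped at both.

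Both NADPH-producing enzyme genes fell with DOX at both passages. Me1 (chromosome 9, 86581371 to 86695953, minus strand) had 137, 142, 139 and 135 CPM without DOX at passage 4 and 116, 107, 98.0 and 101 with DOX. At passage 7 it had 121, 130.2, 123 and 127 CPM without and 98.0, 103, 92.1 and 96.7 with DOX. No library with DOX reached the lowest without it at either passage. The log2 fold changes were -0.39 (SE 0.06, adjusted p = 4.99e-05) and -0.36 (SE 0.06, adjusted p = 8.68e-05), which left 76.1% and 77.7% of the level, and both were called within each replicate pair. A330041J22Rik, an antisense gene that overlaps an exon of Me1 by 30 bases, had 40 to 116 counts and values of -0.47 and -0.52.

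G6pdx (chromosome X, 74409483 to 74429194, minus strand), the entry enzyme of the pentose phosphate pathway, had 139, 141, 166 and 161 CPM without DOX at passage 4 and 130.0, 124, 122 and 129 with DOX. At passage 7 it had 109.5, 119.7, 119 and 110.0 CPM without and 106, 101, 95.2 and 95.03 with DOX. The groups lay apart at both passages, by a few CPM at passage 7. The log2 fold changes were -0.27 (SE 0.06, adjusted p = 0.00491) and -0.21 (SE 0.06, adjusted p = 0.0241), which left 83.0% and 86.7%. The passage 7 call was lost without replicate 2 or 3 of the group without DOX (adjusted p = 0.0717 and 0.0679) and without replicate 3 or 4 of the group with it (0.0847 and 0.0858). Within replicates 1 and 2 alone the value was -0.14 at each passage (adjusted p = 0.103 and 0.129), and within replicates 3 and 4 it was -0.38 (adjusted p = 2e-06) and -0.27 (adjusted p = 0.000434). G6pdx shares 418 exon bases with Ikbkg on the opposite strand, which had 1113 to 2149 counts and fell by 0.21 and 0.20 with DOX, and without the strand setting of the counting the reads of the shared part cannot be assigned. The retrocopy G6pd2 had 0 to 3 counts.

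**Figure D3:**
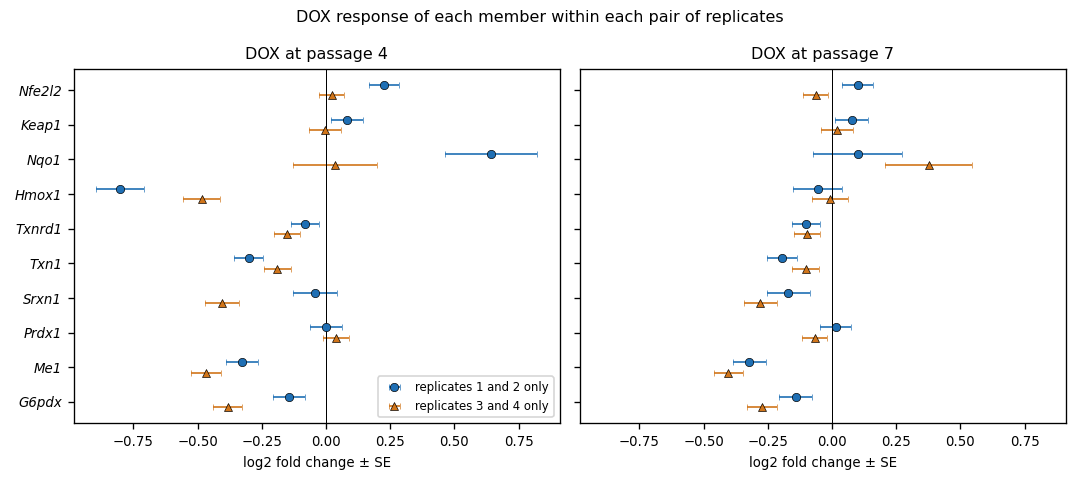
Log2 fold change with DOX (± SE) of the 10 genes at passage 4 (left) and passage 7 (right), computed from replicates 1 and 2 alone (circles) and from replicates 3 and 4 alone (triangles). Me1 lies left of 0 in both pairs at both passages, while Srxn1 and Nqo1 at passage 4 stand far apart between the pairs (-0.04 and -0.40, 0.64 and 0.03).

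Without DOX, 3 members were lower at passage 7 than at passage 4 and none was higher, where 11.3% of all genes tested were lower and 14.3% higher. G6pdx was at -0.41 on the log2 scale (SE 0.06, adjusted p = 0.000123), Hmox1 at -0.30 (SE 0.08, adjusted p = 0.00924) and Txn1 at -0.25 (SE 0.05, adjusted p = 0.00165), and the groups of each lay apart. No member was higher at an unadjusted p under 0.05 or by DESeq2. With the replicate block Nfe2l2 (-0.13, adjusted p = 0.0432) and Me1 (-0.14, adjusted p = 0.0219) were lower as well and Srxn1 was higher (0.23, adjusted p = 0.0144). These values use the libraries of passage 4 without DOX that the DOX response at passage 4 also uses.

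With DOX, 1 member was higher and 3 were lower at passage 7, against 18.3% higher and 15.8% lower among all genes tested. Hmox1 was higher (0.31, SE 0.08, adjusted p = 0.00524) with no overlap, the reverse of its direction without DOX. G6pdx was lower (-0.34, SE 0.06, adjusted p = 0.000364) with no overlap, and Nfe2l2 (-0.24, SE 0.08, adjusted p = 0.0222) and Txn1 (-0.16, SE 0.05, adjusted p = 0.0275) were lower with overlapping groups. The Nfe2l2 call was lost without replicate 1 or 2 of passage 4 with DOX (adjusted p = 0.0755 and 0.0895) and without replicate 3 or 4 of passage 7 with DOX (0.0768 and 0.0802). The Txn1 call was lost without replicate 3 or 4 of passage 4 with DOX (adjusted p = 0.0711 and 0.0699) and without replicate 1 or 2 of passage 7 with DOX (0.0933 and 0.0808). It was also lost with upper quartile factors (adjusted p = 0.0503), without the filter (0.0857), in a fit of only the groups compared (0.0865) and in replicates 3 and 4 alone (0.0583), and the Nfe2l2 call in the fit of only the groups compared (0.0664). With the replicate block Txnrd1 (0.10, adjusted p = 0.0455) and Srxn1 (0.23, adjusted p = 0.0129) were higher too. Over the 4 pairwise comparisons 5 of the 10 genes were called at least once (Nfe2l2, Hmox1, Txn1, Me1 and G6pdx) and 5 were not (Keap1, Nqo1, Txnrd1, Srxn1 and Prdx1). In the single comparisons 8.45% to 18.3% of all genes tested were called higher and 9.1% to 15.8% lower. The share of all genes called at least once was not computed, so the count of 5 cannot be set against it.

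Between the replicate pairs, with group held constant, 3 members were higher in replicates 3 and 4 and 2 were lower, where 17.5% of all genes tested were higher and 19.5% lower. The log2 differences were 0.30 for Srxn1 (SE 0.05, adjusted p = 0.000177), 0.11 for Txnrd1 (adjusted p = 0.00291) and 0.08 for Txn1 (adjusted p = 0.0452). Nfe2l2 was lower (-0.18, adjusted p = 0.000191) and so was Keap1 (-0.12, adjusted p = 0.00814). The DOX responses of Srxn1 were -0.24 at passage 4 and -0.23 at passage 7 (SE 0.13 each). Whether its difference between pairs was larger in size than these was not tested. Within replicates 3 and 4 its response at passage 4 was -0.40, and in passage 4 with DOX the pairs overlapped. What separates the pairs is not in the sample labels, though the DOX mark of the TPM headers follows the same split.

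Across the 16 libraries the members did not move as a block. Of the 45 gene pairs, 23 had a positive Pearson correlation of log2 CPM, with a median of 0.04. These correlations describe libraries that share their DOX state, passage and replicate pair. Txn1 and G6pdx (0.83) and Txnrd1 and Srxn1 (0.83) were the most alike, and Nfe2l2 and Txnrd1 (-0.81) the least. After each group's mean was taken away, Txn1 and G6pdx were at -0.27, Txnrd1 and Srxn1 at 0.66, and Nfe2l2 and Keap1, a factor and its inhibitor, at 0.89. Keap1 and Txnrd1 were then at -0.82. These values still hold the difference between the replicate pairs, in which Nfe2l2 and Keap1 were lower and Txnrd1 and Srxn1 higher in replicates 3 and 4. With that difference taken away as well, a setting chosen after seeing the data, Nfe2l2 and Keap1 were at 0.70, Keap1 and Txnrd1 at -0.46, Txnrd1 and Srxn1 at -0.19 and Txn1 and G6pdx at -0.52. Among all other tested genes the one most like each member over the 16 libraries was Tns3 for Me1 (r = 0.97), Pnpla2 for G6pdx (0.96), Gnb5 for Txn1 (0.96), Mavs for Nfe2l2 (0.96), Trip6 for Srxn1 (0.94), Plscr3 for Txnrd1 (0.92), Adam12 for Hmox1 (0.90), H3f3a for Prdx1 (0.87), Narf for Keap1 (0.84) and Kyat1 for Nqo1 (0.81).

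**Figure D4:**
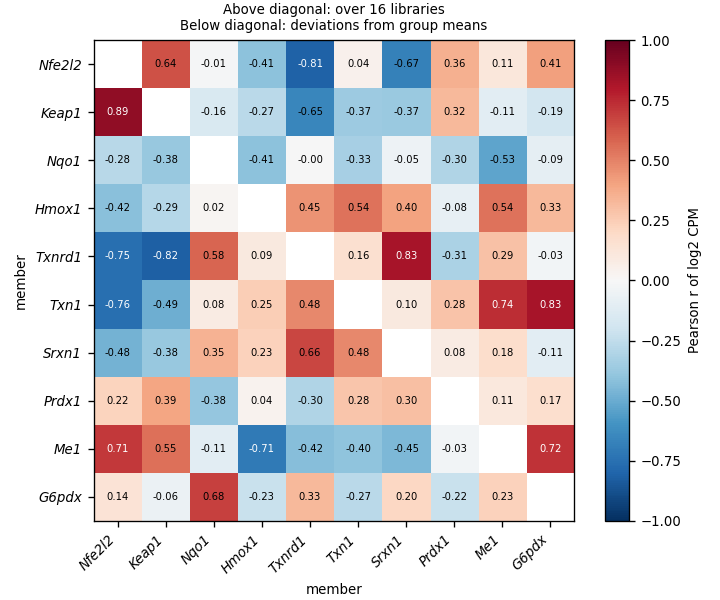
Pearson correlation of log2 CPM for the 45 pairs of the 10 genes, over 16 libraries above the diagonal and after subtraction of group means below it, with colour from -1 (blue) to 1 (red). Nfe2l2 and Keap1 are at 0.89 below the diagonal, and Txn1 and G6pdx at 0.83 above it and -0.27 below it.

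Other genes of the NRF2 pathway moved in both directions with DOX, as genes at large did. Over all 15316 genes tested, 8.45% were called higher and 9.1% lower at passage 4, and 11.1% and 11.6% at passage 7. For the difference of the responses it was 0.516% and 0.679%. With the replicate number as a block, 2031 were higher and 2145 lower at passage 4, and 2339 and 2522 at passage 7. The block gave 287 and 428 for the difference. No list here or below was tested as a set against these shares. Of 13 tested regulators and partners of NRF2, 2 rose and 2 fell at passage 4 and 3 rose and 1 fell at passage 7 (median log2 fold change 0.05 and 0.04). Pgam5, a mitochondrial phosphatase bound by KEAP1, rose at both passages (0.35 and 0.35) and Dpp3, a peptidase that binds KEAP1, fell at both (-0.31 and -0.27). Bach1, a repressor that competes with NRF2 at its elements and acts on Hmox1, rose at passage 4 (0.33, SE 0.06, adjusted p = 0.000569) and was at 0.04 at passage 7 (adjusted p = 0.688). From passage 4 to passage 7 its mean went from 45.5 to 68.4 CPM without DOX, where Hmox1 fell. With DOX it went from 57.1 to 70.3 CPM, where Hmox1 rose. The part of Bach1 in the Hmox1 values was not tested. Sqstm1, the autophagy receptor p62 that binds KEAP1, rose at passage 7 (0.46, SE 0.09, adjusted p = 0.00101) and was at 0.26 at passage 4 (adjusted p = 0.0524). Nfe2l1, the relative of NRF2 that senses the proteasome, rose at passage 7 (0.43, SE 0.04, adjusted p = 6.21e-07). It was at 0.06 at passage 4, and the difference between its responses passed the test (0.37, SE 0.06, adjusted p = 0.0036), the 1 call among these 13. When the replicate number was a block, Sqstm1 rose at passage 4 as well (0.26, adjusted p = 9.87e-05), and the difference was called lower for Bach1 (-0.29, adjusted p = 0.0308).

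Of 17 tested genes of the thioredoxin and peroxiredoxin system beyond the members, 1 rose and 5 fell at passage 4, and 2 rose and 3 fell at passage 7 (median -0.12 and -0.08). Prdx5, a peroxiredoxin of mitochondria and peroxisomes, fell at both passages (-0.54 and -0.35), and so did Nxn, nucleoredoxin (-0.71 and -0.47). Prdx4, the peroxiredoxin of the endoplasmic reticulum, fell at passage 4 (-0.45) and was at -0.19 at passage 7 (adjusted p = 0.157). Txn2, the mitochondrial thioredoxin, rose at passage 7 (0.40) and was at 0.22 at passage 4 (adjusted p = 0.111). The block gave 3 higher and 6 lower at passage 4, with Txn2 (adjusted p = 0.00101), Sesn2 and Prdx6 added, and it called the difference of responses for Prdx6 (0.26) and Txnrd3 (-0.39). Msrb2 was below the filter.

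Of 12 tested NADPH supply genes beyond Me1 and G6pdx, 2 rose and 3 fell at passage 4, and 3 rose and 3 fell at passage 7 (median -0.01 and -0.10). The enzymes next to G6PDX in the pentose phosphate pathway split: Pgd, 6-phosphogluconate dehydrogenase, fell (-0.32 and -0.31), while Pgls, 6-phosphogluconolactonase, rose (0.39 and 0.44). H6pd, the glucose-6-phosphate dehydrogenase of the endoplasmic reticulum, fell (-0.28 and -0.22). Rpia, which isomerises ribose 5-phosphate, rose at passage 7 (0.56) and was at 0.01 at passage 4 (adjusted p = 0.944). The block added Me3, a mitochondrial malic enzyme, to those lower at passage 4 (-0.56, adjusted p = 0.015), and called the difference of responses for Rpia (0.55, adjusted p = 0.00412). The copy G6pd2 was below the filter.

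Of 9 tested heme and iron genes, 2 fell at passage 4, and 3 fell and 1 rose at passage 7 (median -0.13 and -0.09). The iron exporter gene Slc40a1 fell at both passages (-0.29 and -0.45). The ferritin light chain gene Ftl1 fell at passage 4 (-0.16) and was at 0.01 at passage 7 (adjusted p = 0.91). Fech, the last enzyme of heme synthesis (-0.22), and Hmox2, the constitutive heme oxygenase (-0.21), fell at passage 7 and were at -0.12 (adjusted p = 0.17) and -0.13 (adjusted p = 0.23) at passage 4. Blvra, which reduces the biliverdin made by heme oxygenase, was at -0.20 (adjusted p = 0.0806) and -0.15 (adjusted p = 0.183), and Abcb6 was below the filter. The block called the difference of responses for the heme transporter gene Slc48a1 (0.29, adjusted p = 0.016).

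Of the superoxide and peroxide genes, Sod1, Sod2 and Cat were tested and Sod3 was below the filter. Cat, catalase, fell at passage 7 (-0.22, SE 0.06, adjusted p = 0.0191) and was at -0.16 at passage 4 (adjusted p = 0.102). Sod2, the mitochondrial superoxide dismutase, was at 0.15 (adjusted p = 0.0842) and 0.14 (adjusted p = 0.111), and Sod1, the cytosolic one, at -0.17 (adjusted p = 0.177) and -0.02 (adjusted p = 0.912). When the replicate number was a block, Sod1 (adjusted p = 0.0104) and Cat (adjusted p = 0.029) were lower at passage 4 as well.

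Of 13 tested detoxication genes under NRF2, 2 rose and 3 fell at passage 4 and 4 fell at passage 7 (median -0.15 and -0.07). The efflux pump gene Abcc4 (-0.30 and -0.51) and the carbonyl reductase gene Cbr3 (-0.39 and -0.57) fell at both passages. The efflux pump gene Abcc3 rose at passage 4 (0.82, SE 0.21, adjusted p = 0.0104) and was at 0.41 at passage 7 (adjusted p = 0.165). The aldo-keto reductase gene Akr1b8 fell at passage 4 (-0.24) and was at -0.07 at passage 7 (adjusted p = 0.461), whereas Entpd5 was at 0.03 (adjusted p = 0.914) and fell at passage 7 (-0.53). The block gave 5 lower at each passage, adding Osgin1 at both (-0.39 and -0.55) and Ugdh at passage 4 (-0.21), and it called the difference of responses for Ugdh (0.34), Ephx1 (-0.23) and Abcc4 (-0.21). Aldh3a1, Abcc2, Ugt1a6a and Ces1g were below the filter, with at most 5 counts in all 16 libraries together.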

How the data were processed

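Poly(A) RNA of 16 libraries was made into strand-marking libraries, sequenced as 2 reads of 75 bp and aligned with STAR 2.6.0c to GRCm38.p6, per the labels' protocols. The authors deposited raw counts per gene and TPM values. The counter, its annotation and its strand setting are not named in labels or file headers. All 55536 identifiers matched the GRCm38 annotation.

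The members and all gene lists were chosen with earlier results of these data known. Genes were filtered by filterByExpr (15316 kept), scaled by TMM and fitted together over 16 libraries in edgeR 4.0.16 (R 4.3.3; robust quasi-likelihood, 12 residual degrees of freedom), with Benjamini-Hochberg adjustment over all tested genes and a threshold of 0.05. SE is the log2 fold change divided by the root of F. CPM are TMM-scaled. Correlations used log2 CPM with a prior count of 0.5. The fit was tested on simulated data with the same spread setting for all genes and no difference between replicate pairs, so that test does not cover such a difference. The deposited TPM columns, whose headers disagree with the counts, entered only as an alternative, with limma 3.58.1 on log2(TPM + 1). DESeq2 1.42.0, other scalings, no filter and left-out libraries were further alternatives.

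Libraries of the same replicate number deviated together from their group means (r 0.15 to 0.334), and the number was used as a block. Only 7 of the 16 libraries were closest to one of their own number in another group, so a pairing by number is not shown. The agreement follows replicates 1 and 2 against 3 and 4 (0.15 to 0.343 within these pairs, -0.312 to -0.158 between them). No replicates were duplicates (chi-square per degree of freedom 1.88 to 19.1).

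Named were all members, Pkd2 and, of each pathway list, the 3 tested genes with the smallest adjusted p for DOX at each passage, with genes below the filter where 5 or fewer. The marker genes named were picked after their values were seen.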

Additional observations from a re-analysis of the deposited data

Results flagged for a closer look

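Hmox1 stood out because its DOX response differed between the passages by the test of the difference itself, 0.614 on the log2 scale (adjusted p = 0.00838, edgeR's quasi-likelihood test). All 4 libraries with DOX at passage 4 were lower than the 4 without it. At passage 7 the groups overlapped. In 40 checks of a gene in a group of 4 libraries, 0 libraries lay far from the other 3.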

How the results depend on the processing

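Over the 10 genes and 5 comparisons, 1240 values were recomputed from the counts under alternatives: 34 gained and 20 lost a call, and 58 changed sign, none of them called in either fit. RLE scaling changed no sign, and upper quartile scaling changed that of Keap1 for passage without DOX (-0.0042). With the replicate block, and likewise with the pair as a term, 4 genes were lower with DOX at passage 7, 1 was higher and 5 lower at passage 7 without DOX, and 3 were higher with DOX. Replicates 1 and 2 alone gave 2 genes higher with DOX at passage 4. Replicates 3 and 4 alone gave 1 higher at passage 7 without DOX and 2 with DOX. No filter gave 1 gene lower with DOX at passage 7, and a fit of only the groups compared gave 1 lower at passage 7 with DOX. Leaving out each library gave 1 to 3 genes lower with DOX at passage 7. The TPM columns as headed, not among those values, lost 13 calls, gained 6 and changed the sign of 26 of 50 values, 7 of them called in 1 of the fits, and gave 0 lower with DOX at passage 4, 0 higher for the difference and 0 higher for passage with DOX. As 12 of the 16 TPM columns were closest to a count column of another group, this fit compared other sets of libraries than the counts did. The part of any other difference between TPM and counts was not tested.

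Sign changes in replicates 1 and 2 alone gave Prdx1 0.014 for DOX at passage 7, and for the difference of responses Keap1 -0.0054, Txnrd1 -0.020, Srxn1 -0.13 and Prdx1 0.013, and Keap1 -0.013 for passage without DOX and -0.018 with DOX. Without the filter, passage without DOX gave Keap1 -0.015 and Nqo1 -0.0035. Replicates 3 and 4 alone gave Keap1 -0.0045 for DOX at passage 4, Nfe2l2 -0.064 for DOX at passage 7 Nqo1 0.34 for the difference, and Nqo1 -0.35 and Prdx1 0.097 for passage without DOX. For the difference of responses, the replicate block and the pair term gave Srxn1 -0.0016 and -0.0038. Without single libraries, DOX at passage 4 ranged from -0.0028 to 0.095 for Keap1 and -0.0024 to 0.038 for Prdx1, and DOX at passage 7 from -0.038 to 0.062 for Nfe2l2 and -0.064 to 0.0063 for Prdx1. The difference ranged from -0.046 to 0.052 for Keap1, -0.21 to 0.10 for Nqo1, -0.013 to 0.058 for Txnrd1, -0.078 to 0.11 for Srxn1 and -0.0031 to 0.080 for Me1. Passage without DOX ranged from -0.032 to 0.021 for Keap1, -0.14 to 0.17 for Nqo1 and -0.044 to 0.024 for Prdx1, and passage with DOX from -0.045 to 0.053 for Keap1 and -0.094 to 0.0072 for Nqo1.

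Over all genes, the replicate block raised the calls for DOX at passage 4 from 1294 higher and 1393 lower to 2031 and 2145, for the difference from 79 and 104 to 287 and 428 (DESeq2 140 and 198), and for lower at passage 7 without DOX from 1735 to 2660. Without replicate 1 of passage 4 with DOX the difference had 45 and 61. With the TPM columns as headed it had 0 and 0, and DOX at passage 4 had 230 and 429. Nqo1, with 62 to 160 counts per library, had the fewest counts of the members; the 95% intervals of its DOX responses (0.29 and 0.24) included 0, and the part of depth in this was not tested.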
